A study of Mus musculus with 45 samples.

Results

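In mouse mammary tumour cell lines, 8 transcription regulators of the integrated stress response were followed: Atf4, Atf5, Ddit3, Atf3, Jdp2, Cebpb, Cebpg and Nupr1. They were taken by gene symbol from the table of read counts, where each of the 8 symbols has 1 row among 28454 listed genes. In the integrated stress response, kinases that sense amino acid shortage, unfolded protein or other stress phosphorylate the translation factor eIF2α. Most protein synthesis then falls while ATF4, a basic leucine zipper (bZIP) protein, is translated more, and ATF4 switches on genes for amino acid uptake and synthesis and further regulators, which pair with one another and with C/EBP proteins. Only mRNA was measured here, so the translational step of this pathway was not seen.

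All lines came from mouse mammary tumours driven by a MYC transgene under the MMTV promoter, which is active in mammary epithelium. MYAZ16.1e, MYAZ12.3i and MYAZ6.6g form the MYAZ subtype. Myc310 is a single line, and LM1, LM2 and LM3 were recovered from lungs of mice that carried Myc310 tumours in the mammary fat pad. LM1-LM was recovered in the same way after injection of LM1. LM2-LM and LM3-LM are described only as its biological replicates, so the LM line each came from is uncertain. Thus 7 of the 11 lines descend from 1 line, Myc310. MYAZ12.3i-NDI1 is a MYAZ12.3i derivative that the labels mark with NDI1, the name of a yeast NADH dehydrogenase, and say no more about. Each of the 11 lines was sampled in control medium, and 4 of them (MYAZ16.1e, Myc310, LM1, LM1-LM) were also sampled after 6 h in medium free of cysteine and cystine, in 3 cultures per line and medium and 45 libraries in all. The submitters call the 3 cultures technical replicates, so p-values of comparisons between single lines or media measure the spread between cultures of a line. In comparisons of subtypes over libraries the spread mixes lines and cultures, and cultures of a line are treated as independent. Sums and means per line are compared by their spread between lines. In the deprivation experiment a subtype is 1 line.

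Library totals ran from 19517859 to 29019988 counts. Levels are given as CPM, read counts relative to library size after scaling with trimmed mean of M values (TMM), with the values of the 3 cultures in the order of their replicate numbers. Of 10 epithelial marker genes, 4 were at 1 CPM or more in every group, with summed levels of 349 to 2462 CPM. Of the defining ones, Cldn7 and Esrp1 were below 0.1 CPM in the control cultures of every line, Epcam in Myc310 and its descendants, and Cdh1 in every line but MYAZ16.1e. The summed levels of other cell types' markers ran from 1.88 to 219 CPM for fibroblasts (10 genes), 19.0 to 69.7 CPM for leukocytes (8 genes), 6.62 to 19.6 CPM for endothelium (8 genes) and 0.153 to 5.80 CPM for alveolar epithelium (6 genes). The leukocyte sum was higher under deprivation, with means of 37.0, 42.7, 31.0 and 32.6 CPM in control medium and 49.1, 69.7, 67.0 and 68.1 CPM in deprived cultures of MYAZ16.1e, Myc310, LM1 and its derivative LM1-LM, and with 2 of 8 genes at 1 CPM or more in each of these groups. Dcn, Lum and Ptprc were below 0.1 CPM in every group, and the part of such cells in the results was not tested.

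The positions of the genes are on GRCm38 with GENCODE M21. Atf4 lies at chr15:80255184-80257541 and Cebpb at chr2:167688915-167690418, both on the plus strand, as are Ddit3 at chr10:127290774-127296288 and Jdp2 at chr12:85599027-85639878. On the minus strand lie Atf3 at chr1:191170296-191218039, Atf5 at chr7:44812256-44816658, Cebpg at chr7:35046422-35056573 and Nupr1 at chr7:126623249-126630861. Ddit3 overlaps Mars on the other strand, Atf5 overlaps Nup62 and Cebpb overlaps Tmem189, while the strand setting of the counting is not given in the sources used here. Mars, which encodes methionyl-tRNA synthetase, was at 116 to 143 CPM on average in the control cultures of the 4 deprived lines, where Ddit3 averaged 1.98 to 3.62 CPM. Mars rose with deprivation as well, to 253, 340, 389 and 402 CPM in MYAZ16.1e, Myc310, LM1 and its derivative LM1-LM, and its part in the Ddit3 counts was not tested. Nup62, a nuclear pore gene, averaged 135 to 167 CPM in control medium and 144 to 193 CPM under deprivation. Tmem189 averaged 46.8, 54.6, 41.1 and 44.4 CPM in control MYAZ16.1e, Myc310, LM1 and its derivative LM1-LM, above Cebpb in all but MYAZ16.1e, and 38.2, 42.8, 31.3 and 37.0 CPM under deprivation. Its part in the Cebpb counts was not tested.

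Several of the 8 genes are themselves targets of ATF4, so their promoters were searched for the composite site that C/EBP and ATF proteins bind as a pair, written TGATGNAA. All 8 members matched RefSeq promoter windows (GRCm38.p6), 11 windows in total, and the 250 bases before each start were read on both strands. The element was present for 3 of the 8 genes, Atf3, Nupr1 and Jdp2, against 3.91% of 27025 genes, and for 9 of 33 known ATF4 or CHOP target genes with a window (27.3%). The shown stretches carry these matches, and one AP-1 site (TGANTCA) upstream of Ddit3, in capitals, 5′ to 3′ on the strand of the gene.
Atf3, chr1:191183425-191183454, minus strand: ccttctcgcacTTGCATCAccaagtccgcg
Nupr1, chr7:126625562-126625591, minus strand: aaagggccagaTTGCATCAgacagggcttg
Jdp2, chr12:85599372-85599401, plus strand: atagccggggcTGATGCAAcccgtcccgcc
Ddit3, chr10:127290543-127290568, plus strand: cgcgcgcaTGACTCActcacctcctc

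In the Atf3 and Nupr1 windows the element was on the opposite strand of the gene and ended 103 bases before the start, and in Jdp2 it was on the strand of the gene, 26 bases before the start of one of 3 windows. These letters were the same in all 3 genes once read on one strand. The Nupr1 stretch lies within an annotated Nupr1 exon, and the Ddit3 stretch overlaps an exon of Gm4189. The cAMP response element TGACGTCA was in none of the 8 upstream sequences and in 1.77% of all genes, and TGANTCA was in 1 of 8 against 7.82%. A match describes letters only, and a missing one says nothing about binding.

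The first question was how the members responded to loss of cysteine and cystine. Each of the 8 was higher in deprived cultures of each of the 4 lines, by 2.09 to 20.7 fold in MYAZ16.1e, 2.42 to 260 fold in Myc310, 3.21 to 502 fold in LM1 and 3.28 to 786 fold in LM1-LM. Of 13400 genes tested, 26.6%, 32.8%, 35.8% and 36.5% were called higher in these lines by edgeR's quasi-likelihood test at an adjusted p under 0.05, and 53.7%, 66.8%, 71.1% and 72.4% were called in either direction. All 8 members rose at least 2-fold in every line, against 3.78%, 6.93%, 9.06% and 9.76% of genes. The members were chosen with earlier results of these data known, so the shares over all genes describe them and test nothing. At least 4-fold rises were seen for 3 members in MYAZ16.1e (Atf3, Ddit3 and Nupr1) and for 6 in each of the other lines, against 1.16%, 2.22%, 2.87% and 2.98% of genes. In every line and for every member the 3 deprived cultures lay above the 3 control cultures, as 31.0%, 36.6%, 40.0% and 40.3% of genes did. The median log2 fold change of the members was 1.71, 2.37, 2.90 and 2.96, against -0.01 to 0 over all genes. Since most genes were called in every line, the sizes of the changes describe the members better than the calls do.

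**Figure D1:**
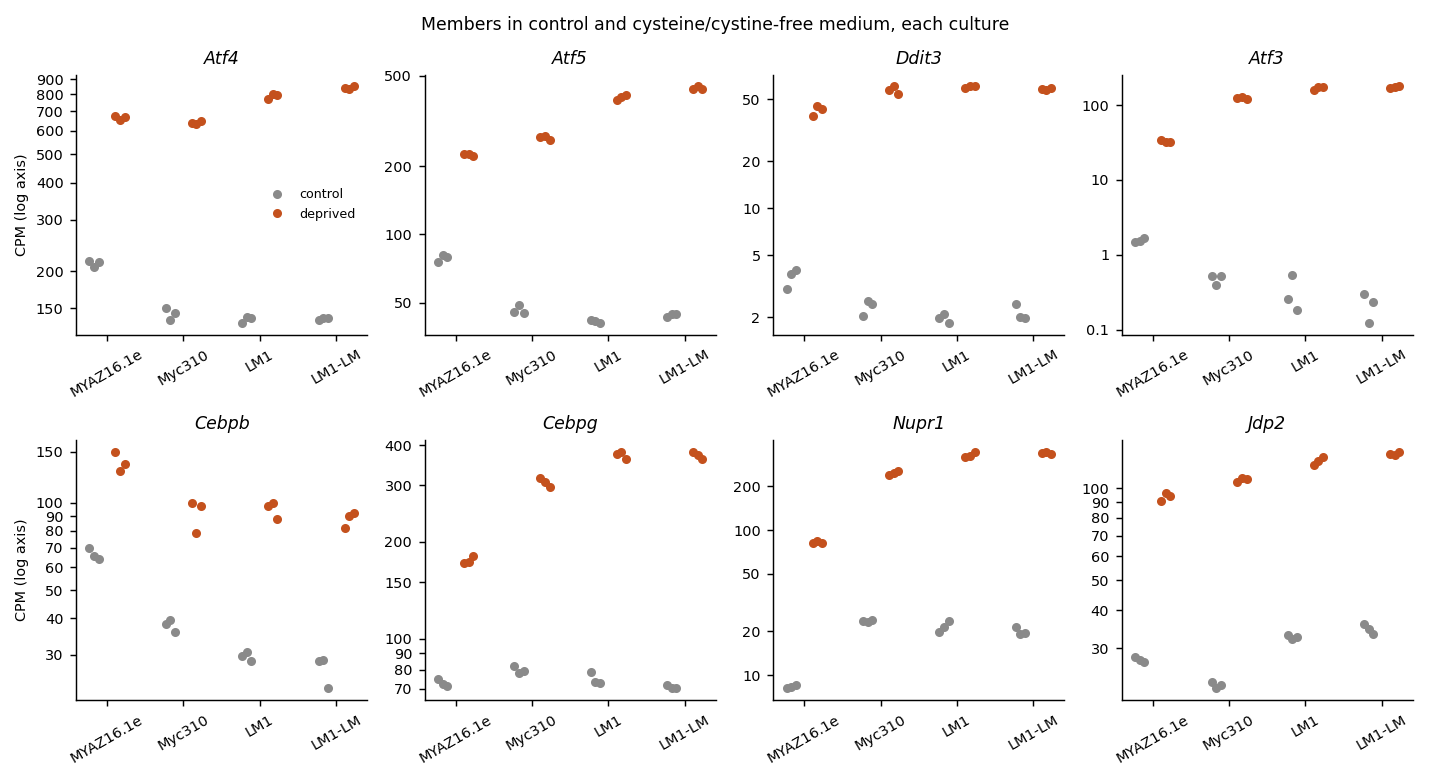
CPM (log axis) of each member in each culture of the 4 deprived lines, grey in control medium and orange after 6 h without cysteine and cystine. For every member and line the 3 orange points lie above the 3 grey points, and the gap is widest for Atf3.

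Atf4, the central effector of the pathway, was the most abundant member per kilobase of exon in every group. In MYAZ16.1e it was at 216, 207 and 214 CPM in control medium and at 677, 656 and 669 CPM under deprivation. Myc310 cultures held 150, 136 and 145 CPM and then 638, 634 and 650 CPM. MYAZ16.1e stayed above Myc310 in both media, with a smaller gap under deprivation. LM1 went from 134, 140 and 138 CPM to 769, 801 and 793 CPM, and LM1-LM from 137, 139 and 139 CPM to 843, 832 and 851 CPM. The log2 fold changes were 1.65 (SE 0.0269), 2.16 (SE 0.0276), 2.52 (SE 0.0278) and 2.61 (SE 0.0276), so the line with the highest control level rose least.

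Atf5, an ATF4 target that is itself translated more when eIF2α is phosphorylated, had the same order of control levels. MYAZ16.1e held 75.9, 81.4 and 79.1 CPM in control medium and 226, 227 and 222 CPM under deprivation. Myc310 held 45.3, 49.1 and 45.2 CPM and then 270, 272 and 259 CPM. Control cultures of MYAZ16.1e were thus above those of Myc310, and deprived cultures below. In LM1 the level moved from 41.9, 41.7 and 40.8 CPM to 392, 402 and 410 CPM, and in LM1-LM from 43.4, 44.6 and 44.6 CPM to 437, 449 and 436 CPM. The fold change went from 2.86 in MYAZ16.1e over 5.74 in Myc310 to 9.68 and 9.96 in LM1 and LM1-LM.

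Ddit3 encodes CHOP, a C/EBP relative that pairs with ATF4 and C/EBP proteins and is linked to cell death under prolonged stress. It was scarce in control medium, at 3.03, 3.81 and 4.02 CPM in MYAZ16.1e and 2.05, 2.56 and 2.44 CPM in Myc310. LM1 cultures had 1.99, 2.10 and 1.85 CPM, and LM1-LM cultures 2.42, 2.01 and 1.98 CPM. Deprivation brought MYAZ16.1e to 38.9, 45.0 and 43.1 CPM and Myc310 to 57.3, 60.2 and 54.1 CPM. LM1 and LM1-LM reached levels close to Myc310, at 58.8, 60.3 and 60.2 CPM and at 58.3, 57.1 and 58.6 CPM. The rises were 11.5, 24.4, 30.1 and 27.0 fold, and the deprived MYAZ16.1e cultures did not overlap those of the other lines. Per kilobase, Ddit3 was the lowest member in the 3 deprived lines of the Myc310 lineage.

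Atf3, a bZIP factor induced by many stresses that can repress as well as activate its targets, had the widest range. Its control counts were 30, 33 and 50 reads in MYAZ16.1e, 13, 9 and 11 in Myc310, 5, 12 and 4 in LM1 and 7, 3 and 5 in LM1-LM. In CPM the control cultures of MYAZ16.1e were at 1.49, 1.53 and 1.69, above all 9 control cultures of the other lines, which ran from 0.123 to 0.536. Under deprivation this order turned round. The deprived MYAZ16.1e cultures reached 34.6, 32.2 and 32.2 CPM and the Myc310 cultures 126, 127 and 122 CPM. For LM1 the values were 158, 174 and 174 CPM, and for LM1-LM 171, 172 and 178 CPM, which overlap. The log2 fold changes were 4.37 (SE 0.130), 8.02 (SE 0.228), 8.97 (SE 0.284) and 9.62 (SE 0.336). Atf3 ranked 39th by fold change among 13400 genes in MYAZ16.1e, 5th in Myc310 and LM1 and 2nd in LM1-LM. Per kilobase it was the lowest of the 8 in every control group and in deprived MYAZ16.1e, and the fifth or the fourth in the other deprived groups.

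Jdp2, a bZIP repressor that pairs with JUN and ATF proteins, moved over a narrower range. MYAZ16.1e went from 28.2, 27.4 and 27.0 CPM to 90.9, 96.8 and 94.2 CPM, and Myc310 from 23.4, 22.3 and 22.9 CPM to 105, 108 and 107 CPM. LM1 went from 33.1, 32.1 and 32.7 CPM to 119, 123 and 127 CPM, and LM1-LM from 36.1, 34.7 and 33.3 CPM to 129, 129 and 132 CPM. The deprived levels of the 4 lines did not overlap. Myc310, the line with the lowest control level, had the largest rise, 4.66 fold, against 3.42, 3.76 and 3.74 fold in MYAZ16.1e, LM1 and LM1-LM.

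Cebpb, a C/EBP activator with a role in mammary gland development, rose least in every line. MYAZ16.1e went from 69.9, 65.5 and 64.3 CPM to 150, 129 and 136 CPM, and Myc310 from 38.2, 39.5 and 36.0 CPM to 99.7, 78.5 and 97.5 CPM. LM1 went from 29.5, 30.6 and 28.5 CPM to 97.2, 100 and 88.1 CPM, and LM1-LM from 28.4, 28.8 and 23.0 CPM to 81.9, 90.4 and 92.2 CPM. This was the only one of the 8 whose deprived level was highest in MYAZ16.1e, with no overlap with the other lines. The folds were 2.09, 2.42, 3.21 and 3.28.

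Cebpg lacks a strong activation domain and serves as a partner of ATF4 and of other C/EBP proteins. Its control level ran only from 70.2 to 82.1 CPM over the 12 cultures. Deprived MYAZ16.1e cultures held 172, 173 and 181 CPM, and those of Myc310 317, 306 and 297 CPM. The LM1 cultures, at 375, 381 and 361 CPM, overlapped those of LM1-LM, at 382, 373 and 362 CPM, and lay above both other lines. The folds were 2.40, 3.83, 4.98 and 5.25.

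Nupr1 is a small stress-induced chromatin protein rather than a bZIP factor and is an ATF4 target in many cells. It was at 8.14, 8.27 and 8.52 CPM in control MYAZ16.1e and at 81.3, 84.0 and 81.7 CPM after deprivation. Myc310 started higher, at 23.6, 23.4 and 24.1 CPM, and reached 240, 246 and 255 CPM. The rises of 9.88 and 10.4 fold were close although both levels were far apart. LM1 went from 19.7, 21.3 and 23.6 CPM to 318, 322 and 345 CPM (15.2 fold), and LM1-LM from 21.4, 19.1 and 19.4 CPM to 341, 347 and 335 CPM (17.1 fold).

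The next question was whether lines of the Myc310 lineage responded more than MYAZ16.1e, which was tested as a difference of log2 fold changes. In Myc310 6 of 8 members rose more than in MYAZ16.1e, with 40.3% of genes called in either direction, and in LM1 and LM1-LM all 8 did, with 52.2% and 54.8% called. None rose less on the log2 scale. In CPM, Cebpb gained most in MYAZ16.1e, by 72.0, against 54.0, 65.6 and 61.4 in Myc310, LM1 and LM1-LM. Its control means were 66.5 CPM in MYAZ16.1e and 37.9, 29.6 and 26.8 CPM in those lines. Every other member gained more CPM in each of those lines than in MYAZ16.1e. All of the tested comparisons share the MYAZ16.1e cultures. The share of genes with a larger response was 19.8%, 26.9% and 28.4%.

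**Figure D2:**
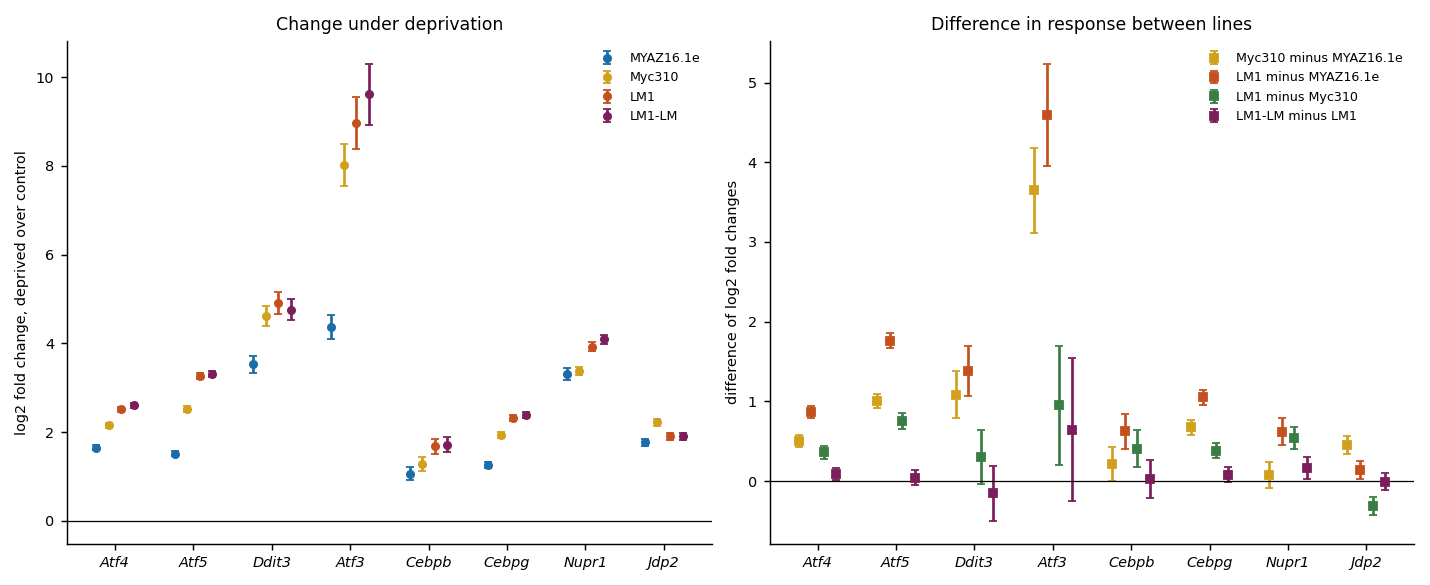
Left, log2 fold change of each member under deprivation in 4 lines. Right, differences of these log2 fold changes between lines. Points are edgeR estimates and bars 95% intervals. Atf3 stands highest in both panels, and the intervals for LM1-LM minus LM1 cross 0 for 6 of 8 members.

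Atf3 had the largest difference, 3.65 (SE 0.262, edgeR adjusted p = 2.7e-13) in Myc310 and 4.60 (SE 0.313, edgeR adjusted p = 1.87e-15) in LM1. For Atf5 the differences were 1.01 (SE 0.0442) and 1.76 (SE 0.0449), and for Ddit3 1.08 (SE 0.145) and 1.38 (SE 0.154). Those of Cebpg were 0.67 (SE 0.0466) and 1.05 (SE 0.0470), and those of Atf4 0.50 (SE 0.0385) and 0.86 (SE 0.0387). Cebpb and Nupr1 passed the test in LM1, at 0.62 each, but not in Myc310, where the differences were 0.22 (95% interval 0.00204 to 0.432, edgeR adjusted p = 0.103) and 0.08 (95% interval -0.0868 to 0.243, edgeR adjusted p = 0.485). The Cebpb difference in Myc310 passed the test with no filter (0.22, edgeR adjusted p = 0.00214) and without replicate number 2 (0.32, edgeR adjusted p = 0.0302), which makes 7 of 8.

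Jdp2 differed by 0.45 (SE 0.0561) in Myc310 but by only 0.14 in LM1 and 0.13 in LM1-LM. Those last calls had edgeR adjusted p values of 0.0342 and 0.0397 and were lost with DESeq2 (adjusted p = 0.0958 and 0.135), with either other filter and without any 1 of the 3 replicate numbers, and that of LM1-LM also with the normalization of DESeq2 in edgeR (adjusted p = 0.0739). Over the alternatives both differences stayed between 0.11 and 0.16.

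Within the Myc310 lineage, 6 of 8 members differed in response between LM1 and its parent Myc310, with 24.5% of genes called. Atf5 rose more in LM1 by 0.75, Nupr1 by 0.54, Cebpb by 0.41, Cebpg by 0.38 and Atf4 by 0.36 on the log2 scale, while the difference for Jdp2 was -0.31. The Cebpb call was lost without replicate number 2, at 0.26 and an edgeR adjusted p of 0.151. The differences for Atf3 (0.95, 95% interval 0.205 to 1.70, edgeR adjusted p = 0.0609) and Ddit3 (0.30, 95% interval -0.0354 to 0.642, edgeR adjusted p = 0.208) missed the threshold, and Atf3 passed it without replicate number 2, at 1.63 with an edgeR adjusted p of 0.0182.

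Between LM1-LM and LM1 the edgeR test called 0 of 8 members, with 0.769% of genes called. At an unadjusted p under 0.05 it counted 2, Atf4 (0.09, 95% interval 0.00896 to 0.169) and Nupr1 (0.17, 95% interval 0.0281 to 0.308), and DESeq2 called 0 with 2 at an unadjusted p under 0.05. At that unadjusted threshold edgeR counted 11.3% of all genes and DESeq2 6.13%. For Atf4, Atf5, Cebpb, Cebpg, Jdp2 and Nupr1 the intervals lay between -0.211 and 0.308, while for Ddit3 the interval reached -0.50 and for Atf3 1.55.

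Other genes of the pathway were read from lists. Of 46 known ATF4 or CHOP targets, 43 were tested. In the order MYAZ16.1e, Myc310, LM1, LM1-LM, 41, 40, 40 and 38 were called higher and 2, 3, 3 and 3 lower. Of all genes, 26.6%, 32.8%, 35.8% and 36.5% were called higher and 27.1%, 33.9%, 35.3% and 35.9% lower. The targets were listed with earlier results of these data known, so these shares describe them only. The median log2 fold changes were 1.84, 2.17, 2.42 and 2.47, against -0.01 to 0 over all genes. With genes that had no control read set to their lower bound, the LM1-LM median was 2.41. The 3 largest mean rises called in all lines were those of Fgf21 and Gdf15, secreted stress hormones, and Chac1, a glutathione-degrading enzyme. Fgf21 had 0 reads in all 12 control libraries of the 4 lines and 28 to 158 in the deprived ones, at least 35.4-fold higher in MYAZ16.1e and at least 149-fold higher in LM1-LM against 3 reads over the control group. Chac1 went from 2.88 to 179 CPM in MYAZ16.1e and from 1.36 to 115 CPM in LM1. Dnajc3, an inhibitor of eIF2α kinases, fell in all 4 lines by 0.26 to 0.39 on the log2 scale, and Tnfrsf10b, a death receptor, by 0.12 to 0.46. Bcl2l11, which encodes the death inducer BIM, rose by 0.15 in MYAZ16.1e and changed by -0.17, -0.64 and -0.57 in the other lines.

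**Figure D3:**
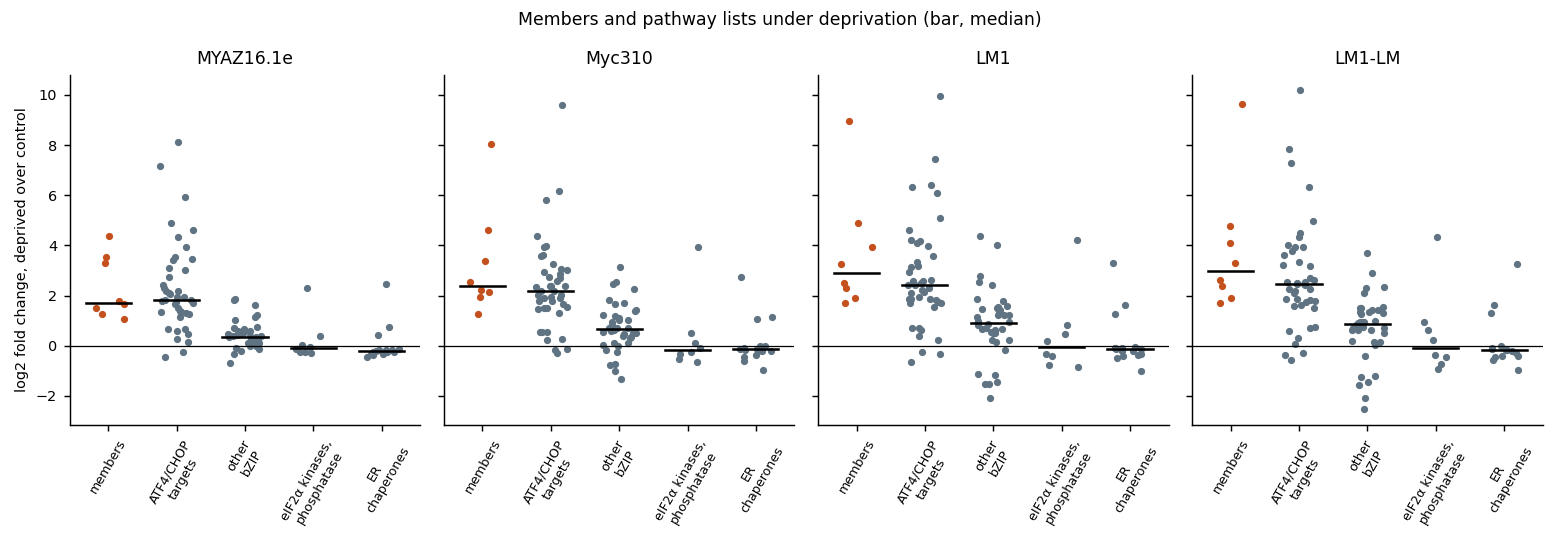
Log2 fold change under deprivation of the members (orange) and of the tested genes of 4 pathway lists (slate) in each deprived line, with the median as a bar. Fitted values are drawn also where all control libraries had 0 reads, so the highest points among targets depend on the prior count. The member and target medians lie between 1.71 and 2.96, and those of eIF2α regulators and ER chaperones lie between -0.22 and -0.07.

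Other ATF, C/EBP and bZIP genes moved less as a list. Of 46, 38 were tested, with 23, 26, 28 and 27 called higher and 2, 4, 5 and 6 lower, beside 53.7%, 66.8%, 71.1% and 72.4% of all genes called in either direction, and with medians of 0.35, 0.68, 0.90 and 0.86 (0.33 in MYAZ16.1e with genes without a control read at their bound). Among those called in all 4 lines Creb5 had the largest mean rise, from 4.29 to 13.4 CPM in MYAZ16.1e and from 0.606 to 9.82 CPM in LM1. Nfil3, a repressor of the PAR bZIP targets, went from 28.6 to 103 CPM and from 24.9 to 170 CPM, and Jun, a subunit of AP-1, from 56.4 to 92.7 CPM and from 52.3 to 283 CPM. Tef, a PAR bZIP factor, fell from 42.5 to 34.2 CPM in MYAZ16.1e and from 43.5 to 15.1 CPM in LM1. Atf6b was called lower in MYAZ16.1e, at -0.08, and higher in 2 of the other lines.

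Upstream of the members, the 8 genes listed for eIF2α, its kinases and its phosphatase subunits split, with 2, 3, 4 and 4 called higher and 4 lower in each line. One of the 4 lower genes, Eif2a, encodes another initiation factor, eIF2A, and the gene of eIF2α is Eif2s1. Ppp1r15a, the stress-induced subunit that returns eIF2α to its unphosphorylated form, rose by 2.31, 3.95, 4.21 and 4.35 and its relative Ppp1r15b by 0.39 to 0.93. The mRNAs of the kinase genes Eif2ak4 (GCN2, the amino acid sensor), Eif2ak1 and Eif2ak2 fell, Eif2ak4 by 0.25 in MYAZ16.1e and by 0.92 in LM1-LM. The remaining kinase gene, Eif2ak3 (PERK, the sensor of unfolded protein), was called higher in LM1 (0.46) and LM1-LM (0.61) and was at 0.04 and -0.08 in MYAZ16.1e and Myc310, where it was not called. Among 16 endoplasmic reticulum chaperones and XBP1 targets only 3 were called higher in each line, Herpud1, Hspa5 and Dnajb9, and 13, 11, 11 and 12 were called lower, beside 27.1%, 33.9%, 35.3% and 35.9% of all genes called lower and 26.6% to 36.5% called higher. Herpud1 rose by 2.45 to 3.28 and Hspa5, the chaperone BiP, by 0.43 to 1.62, while Sdf2l1 fell by 0.37 to 1.01, Calr by 0.45 to 0.60 and Pdia6 by 0.26 to 0.43.

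In control medium, levels of the members differed between lines before any deprivation. Ratios of the highest to the lowest line mean were 17.9 for Atf3, 4.72 for Nupr1, 4.27 for Atf5, 3.72 for Ddit3, 2.54 for Cebpb, 2.03 for Atf4, 1.60 for Jdp2 and 1.28 for Cebpg. For Cebpg the cultures of all 10 neighbouring pairs of lines overlapped in range, and for Ddit3 and Cebpb 9 of 10 pairs did. For Atf4 and Atf5 4 of 10 pairs overlapped. How often neighbouring lines overlap over all genes was not counted, so these numbers are not read as a trait of the members.

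**Figure D4:**
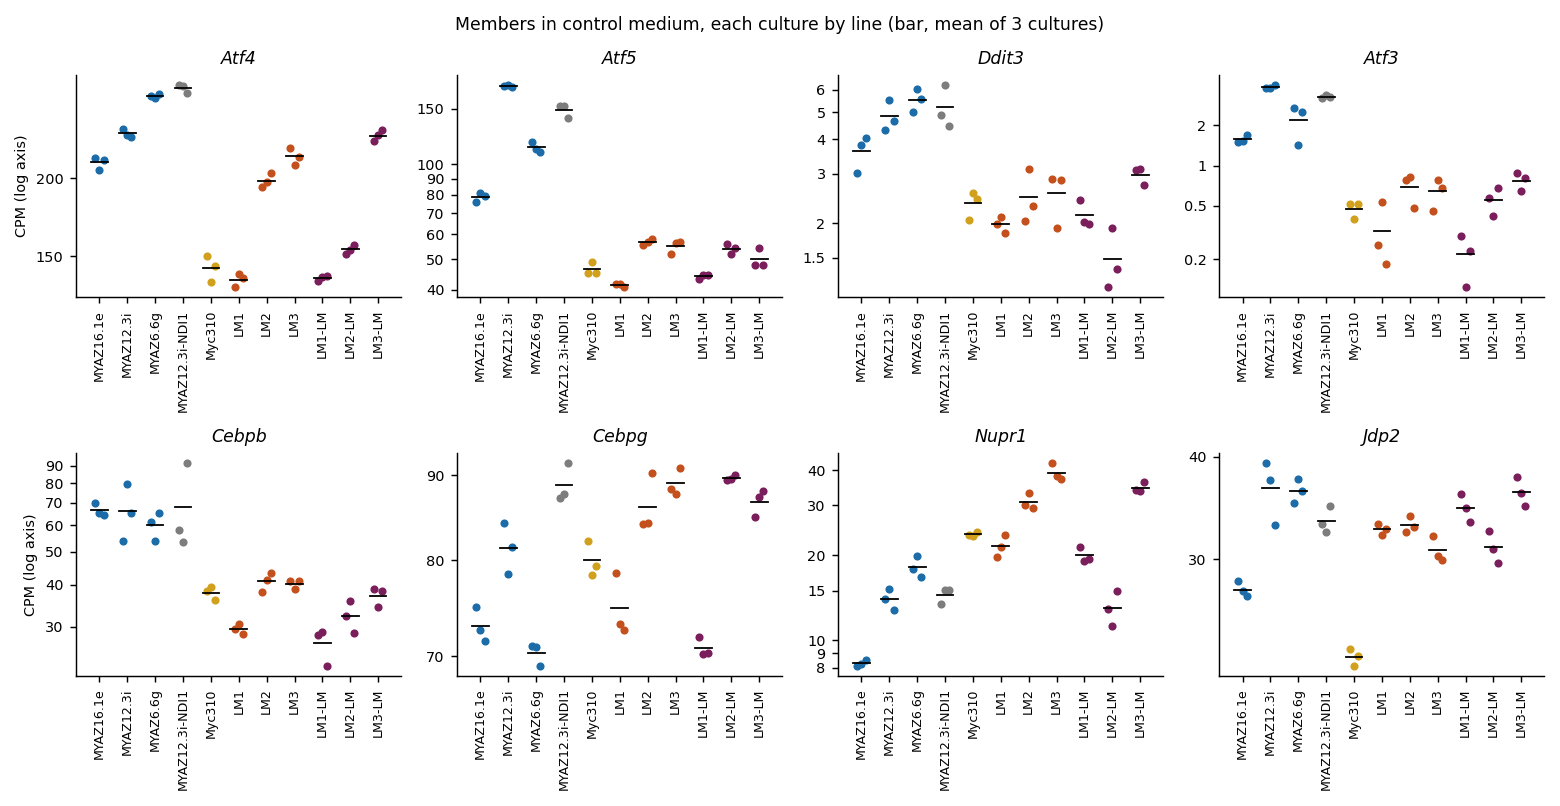
CPM (log axis) of each member in each culture of the 11 lines in control medium, with the mean of 3 cultures as a bar. MYAZ lines are blue, the NDI1 line grey, Myc310 yellow, LM lines orange and LM-LM lines purple. For Atf3, Atf5, Ddit3 and Cebpb the blue means lie above all yellow, orange and purple ones.

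Atf3 averaged 1.57, 3.89 and 2.20 CPM in MYAZ16.1e, MYAZ12.3i and MYAZ6.6g and 0.476 CPM in Myc310. It averaged 0.325, 0.697 and 0.642 CPM in LM1, LM2 and LM3 and 0.217, 0.558 and 0.772 CPM in LM1-LM, LM2-LM and LM3-LM. The same split was seen for Atf5, at 78.8, 177 and 113 CPM in the MYAZ lines and 41.4 to 56.8 CPM in the 7 others, and for Cebpb, at 66.5, 66.1 and 60.2 CPM against 26.8 to 40.9 CPM. Ddit3 averaged 3.62, 4.84 and 5.54 CPM in the MYAZ lines and 1.49 to 2.99 CPM in the others, with the lowest MYAZ culture inside the range of LM3-LM. Atf4 did not split in this way, because LM3 at 217 CPM and LM3-LM at 234 CPM stood among the MYAZ lines at 212, 236 and 272 CPM, whereas LM1 and LM1-LM were at 137 and 138 CPM. Nupr1 ran the other way, from 8.31 CPM in MYAZ16.1e to 39.2 CPM in LM3, with LM2-LM at 13.0 CPM among the MYAZ lines.

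With libraries as the unit, edgeR called 7 of 8 members in Myc310 against MYAZ (50.9% of 13795 genes called), 7 in LM (60.8%) and 6 in LM-LM (62.8%). Atf3 was lower by 5.35, 4.56 and 4.94 fold in Myc310, LM and LM-LM, Atf5 by 2.66, 2.41 and 2.50 fold, Ddit3 by 2.00, 2.00 and 2.13 fold, and Cebpb by 1.71, 1.75 and 2.02 fold. Atf4 was lower by 1.68, 1.31 and 1.38 fold. Nupr1 was higher by 1.74, 2.26 and 1.66 fold. Jdp2 passed the test in Myc310, lower by 1.48 fold, and Cebpg in LM, higher by 1.11 fold. The Cebpg call held in 6 of 15 alternatives and was lost with at least 10 counts in every library, with counts summed per line, without any 1 replicate number, and without MYAZ16.1e, MYAZ6.6g, LM2 or LM3 (0.10 to 0.17 on the log2 scale).

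With counts summed to 1 value per line the same test called 4 of 8 members in LM and 4 in LM-LM, which were Atf3, Atf5, Ddit3 and Cebpb in both. Myc310 is then 1 value with no spread between lines of its own, so only its log2 differences from MYAZ are given. They were -2.41 for Atf3, -1.39 for Atf5, -0.99 for Ddit3, -0.74 for Cebpb, -0.73 for Atf4, -0.54 for Jdp2 and 0.82 for Nupr1. Of 16017 genes, 23.6% and 26.4% were called in LM and LM-LM. DESeq2 on libraries called 7, 7 and 6 members in Myc310, LM and LM-LM. Between lines, the means of Atf3, Atf5, Ddit3 and Cebpb in LM and in LM-LM lay below all 3 MYAZ means, as for 21.7% and 21.4% of genes, and those of Nupr1 in LM lay above, as for 22.7%. The exact two-sided permutation test gave p = 0.1 for each of these 9 comparisons, the smallest p that 3 lines against 3 allow. The Nupr1 call in Myc310 was lost without MYAZ16.1e (0.55, edgeR adjusted p = 0.110) and without any 1 replicate number, and in LM-LM it was lost without MYAZ16.1e (0.48), without LM3-LM (0.29) or without replicate number 3 (0.66, edgeR adjusted p = 0.0598). The Atf4 call in LM was lost without MYAZ6.6g (-0.29) or without LM1 (-0.21).

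The targets of ATF4 and CHOP were also read in control medium, a comparison added after the data were seen. Of 42 tested, 15, 19 and 17 were called higher in Myc310, LM and LM-LM than in MYAZ and 10, 10 and 12 lower, with medians of 0.08, 0.15 and 0.00. The 25, 29 and 29 targets called stand beside 50.9%, 60.8% and 62.8% of all genes. Summed per line, 7, 8 and 9 were called higher and 0, 4 and 5 lower, beside 8.92%, 23.6% and 26.4% of all genes called.

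Lines were then set against the line they came from. In control medium LM1 differed from Myc310 for 3 of 8 members (32.5% of 13899 genes called), with Jdp2 higher by 0.52 (SE 0.0545) and Atf5 and Cebpg lower, at -0.16 and -0.09. The Cebpg call was lost with no filter and without any 1 replicate number, and the Atf5 call without replicate number 2 (-0.13, edgeR adjusted p = 0.115). Cebpb, at -0.35, just missed the threshold (edgeR adjusted p = 0.0502) and passed it in 5 of 9 alternatives. Atf4, at -0.06, was called without replicate number 2 (-0.11, edgeR adjusted p = 0.0227). LM2 and LM3 each differed for 5 of 8, all higher (45.0% and 45.2% of genes called in either direction, 23.5% and 23.9% higher). Atf4 was higher in LM2 and LM3 by 0.47 and 0.60, Jdp2 by 0.54 and 0.43, Nupr1 by 0.39 and 0.73, Atf5 by 0.29 and 0.25, and Cebpg by 0.11 and 0.16. The Cebpg call in LM2 was lost with no filter (edgeR adjusted p = 0.0528), without replicate number 2 (edgeR adjusted p = 0.0613) and without replicate number 3 (edgeR adjusted p = 0.218). Jdp2 was thus higher than in the parent in each of the 3 lung-derived lines, at 32.6, 33.1 and 30.8 CPM against 22.8 CPM, with no overlap of cultures. How many genes separate in this way was not counted.

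LM1-LM did not pass the test against LM1 for any of the 8, with 10.6% of genes called. At an unadjusted p under 0.05 edgeR counted 1, Cebpg (-0.08, 95% interval -0.152 to -0.00702), and DESeq2 called 0 with 1 at an unadjusted p under 0.05. Over all genes that threshold was passed by 22.2% with edgeR and 11.8% with DESeq2. The intervals for Atf4, Atf5, Cebpg, Jdp2 and Nupr1 lay between -0.278 and 0.193. Those of Cebpb (-0.439 to 0.155), Ddit3 (-0.311 to 0.535) and Atf3 (-1.55 to 0.36) were wider.

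MYAZ12.3i-NDI1 differed from MYAZ12.3i for 3 of 8 members, with 17.4% of 12841 genes called. Atf4 was at 283, 281 and 274 CPM against 240, 235 and 233 CPM, higher by 0.24 (edgeR adjusted p = 4.29e-05). Atf5 was at 152, 153 and 140 CPM against 177, 179 and 176 CPM, and this change of -0.25 had an edgeR adjusted p of 0.000256. For both genes the cultures of the NDI1 line did not overlap those of its parent, and the share of all genes that do so was not counted. Cebpg was higher by 0.13 with an edgeR adjusted p of 0.0352, and this call was lost with DESeq2 (adjusted p = 0.0701) and without any 1 replicate number. Jdp2, at -0.13, was called without replicate number 3 (-0.23, edgeR adjusted p = 0.0380).

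The genes whose log2 CPM followed each member most closely were named by Pearson r over the 15 group means, which share ancestry and are split by the medium. For Atf4 these were Tars, a tRNA synthetase, at 0.992 and Herpud1 at 0.989. For Cebpg they were Ern1, the kinase and ribonuclease IRE1, and Cars, another tRNA synthetase, at 0.991 each, and for Jdp2 Nars and Sars, also tRNA synthetases, at 0.982 and 0.981. Atf3 was closest to Lrrfip2 and Slc25a25 at 0.990 each, Atf5 to Prr14 at 0.987 and Slc30a4 at 0.985, and Ddit3 to Rheb at 0.989 and Gpcpd1 at 0.988. Cebpb was closest to Mfap1b at 0.975 and Rnd1 at 0.972 and Nupr1 to Arfip1 at 0.979 and AU040320 at 0.976. Over the 11 control means other genes led, such as Slc30a4 at 0.986 for Atf3 and Copz1 at 0.989 for Atf4, and the highest r for Cebpg was 0.922, with Swt1.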

How the data were processed

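The authors sequenced poly(A) RNA of 45 cultures as paired reads with a directional kit and processed them with the nf-core RNA-seq pipeline (STAR and RSEM). The deposited values are whole-number read counts per gene and library, not normalized. The processing notes name GRCm38, R 4.2.2 and DESeq2 1.38.3. The strand setting of the counting is not given in the sources used here, and 7725 rows without a symbol held 1.18% of counts.

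Counts were tested with edgeR 4.0.16 (limma 3.58.1, R 4.3.3): TMM normalization, filterByExpr, quasi-likelihood F tests and Benjamini-Hochberg adjustment over all genes tested, at 0.05. Standard errors and 95% intervals are Wald values of the same fits. Separate models held the 24 libraries of the deprivation experiment, the 30 control libraries by subtype, all 33 control libraries by line, and the 6 libraries of MYAZ12.3i and its NDI1 derivative. DESeq2 1.42.0 served as an alternative, with RLE normalization, other filters, a replicate block, sums per line, and replicates or lines left out. CPM used TMM factors over 45 libraries, with a prior count of 2 on the log scale. Line means were compared by an exact two-sided permutation test. Lower bounds of folds, set at 3 counts over a group, cover counting error only. The scripts were tested on simulated data.

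All 8 members are described. Of each list, the genes called in all 4 lines with the 3 largest rises and 3 largest falls are named, and any with opposite calls. For likeness, the 2 genes with the highest r are taken among those at a mean log2 CPM of at least 3. The members and lists were chosen with earlier results of these data known. Same-numbered cultures did not deviate together (mean r -0.0084 in the deprivation experiment and 0.0045 in control medium), so the numbers were not taken as pairs.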

Additional observations from a re-analysis of the deposited data

Results flagged for a closer look

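Responses to deprivation that differed between lines by the test of the difference itself are given here on the log2 scale (edgeR, adjusted p under 0.05). Between Myc310 and MYAZ16.1e the differences were 3.65 for Atf3, 1.08 for Ddit3, 1.01 for Atf5, 0.67 for Cebpg, 0.50 for Atf4 and 0.45 for Jdp2. Between LM1 and MYAZ16.1e they were 4.60 for Atf3, 1.76 for Atf5, 1.38 for Ddit3, 1.05 for Cebpg, 0.86 for Atf4, 0.62 for Cebpb, 0.62 for Nupr1 and 0.14 for Jdp2. Between LM1-LM and MYAZ16.1e they were 5.24 for Atf3, 1.80 for Atf5, 1.23 for Ddit3, 1.13 for Cebpg, 0.95 for Atf4, 0.79 for Nupr1, 0.65 for Cebpb and 0.13 for Jdp2. Between LM1 and Myc310 they were 0.75 for Atf5, 0.54 for Nupr1, 0.41 for Cebpb, 0.38 for Cebpg, 0.36 for Atf4 and -0.31 for Jdp2. The Jdp2 differences of 0.14 and 0.13 passed the test in 2 of 8 and 1 of 8 alternatives, and not with DESeq2 (adjusted p = 0.0958 and 0.135). The first 3 comparisons share the MYAZ16.1e cultures, and each line stands for its subtype alone.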

How the results depend on the processing

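For deprivation within a line, 284 of 284 alternative values of the members kept their direction and call. With at least 10 counts required in every library Atf3 was not tested in that model. Of the response differences 295 kept both, 14 lost a call, 3 gained one and 3 turned direction, and in control medium 624, 41, 11 and 12 did. With counts summed per line, 0 members in place of 7 were called in Myc310 against MYAZ and 4 in place of 7 in LM, a fit with fewer samples.

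The members' values that turned direction are given here, and the cause was not tested. All but 1 were not called after the turn. For LM1-LM minus LM1 under deprivation, leaving out each replicate number gave -0.20 to 1.05 for Atf3, -0.12 to 0.14 for Cebpb and -0.0170 to 0.0126 for Jdp2, and in control medium -1.04 to 0.27 for Atf3 and -0.0072 to 0.0190 for Atf4. Likewise Ddit3 ran from -0.0452 to 0.173 in LM2 and from -0.0729 to 0.362 in LM3 against Myc310, and in the NDI1 line Cebpb ran from -0.24 to 0.35 and Nupr1 from -0.0261 to 0.111. Jdp2 in LM minus MYAZ was 0.0013 without MYAZ12.3i, and -0.18 and called without MYAZ16.1e (edgeR adjusted p = 0.00109). Cebpg in LM-LM minus MYAZ was called without LM1-LM (0.23, edgeR adjusted p = 0.000408), without MYAZ12.3i (0.19, edgeR adjusted p = 0.0109) and with no filter (0.15, edgeR adjusted p = 0.0447). Jdp2 in LM-LM minus MYAZ was -0.0053 with at least 10 counts, -0.11 without MYAZ16.1e (then called, edgeR adjusted p = 0.0436), -0.0032 without LM1-LM, -0.0314 without LM3-LM and -0.0028 to 0.0404 without a replicate number.

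Counts over all genes moved more. The LM1 minus Myc310 response had 3278 calls, 2035 without replicate 2 and 2168 without replicate 3. LM1-LM minus LM1 had 103 calls, 218 with no filter, 190 with DESeq2 and 4 to 44 without a replicate. Summed per line, 3788 and 4226 genes were called in LM and LM-LM in place of 8385 and 8661. In control medium LM1-LM minus LM1 had 840 to 919 in place of 1467 without a replicate, and the NDI1 comparison 898 to 1326 in place of 2236.

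With the replicate block, 189 of 189 results kept their direction and call. The numbers were not taken as pairs, since same-number correlations ran from -0.128 to 0.099 in the deprivation experiment and from -0.146 to 0.131 in control medium, where 3 of 24 and 14 of 33 libraries were closest to their own number.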
